A study of Anas platyrhynchos with 2 samples.

Results

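The miRNAs miR-456 to miR-460 were described in the duodenum of the duck (Anas platyrhynchos), the first part of the small intestine. They were taken by name, as every row of the mature miRNA table named miR-456, miR-457, miR-458, miR-459 or miR-460, with any letter and any arm. The rule found 7 of the 288 rows in the table, from 5 hairpins: gga-miR-456-3p, gga-miR-458a-3p, gga-miR-458b-5p and both arms of gga-miR-460a and gga-miR-460b. The prefix gga marks chicken names. The table lists 0 rows of miR-457 and 0 rows of miR-459. The ducks were female Jingjiang ducks, an egg-laying breed, at 1 day of age, and 20 of them were divided between a group driven in a vehicle for 8 h (40 to 70 km per h) and controls that stayed in the same kind of carry case without transport. The labels describe the control duodenum as normal and the transported one as having mucosa damaged by the stress. There is 1 library per group, and the sources used here do not say how many ducks it holds.

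The libraries are called CC and CT, as in the table. CC was read as control and CT as transported from the last letter alone, which no label spells out, so directions are given as CT against CC. The totals were 5772509 counts in CC and 5272666 in CT. Levels are in CPM, counts per 1000000 counts of the library. With 1 library per group there is no replicate check and no p-value, and the exact 95% intervals cover counting error only. The profile carried the miRNAs of intestinal epithelium: miR-215 and miR-194 together reached 438810 CPM in CC against 485270 in CT, while miR-192 is not listed. The 3 pancreas markers, miR-216a, miR-216b and miR-217, summed to 54.7 CPM in CC against 2533 in CT, and the single endothelial marker, miR-126, to 9134 CPM against 5298. The sums of the other lists were, in CC and CT in turn, 8751 and 6524 CPM for 5 muscle markers, 555 and 405 CPM for 2 of neurons, 209 and 207 CPM for miR-122 of liver, and 3.29 and 1.90 CPM for 2 of red blood cells. The 2 white blood cell markers summed to 85.8 and 92.0 CPM but went opposite ways, with ratios of CT to CC of 1.26 for miR-142-3p (1.09 to 1.45) and 0.507 for miR-223 (0.362 to 0.701). The red blood cell sums rest on few counts, 10 in CC and 3 in CT for miR-451 and 9 and 7 for miR-144. In the muscle list miR-133b was higher in CT (15.6 CPM in CC, 20.7 in CT). Its ratio had an interval that holds 1 (0.994 to 1.77). The rest were lower, with miR-206 at only 1 count in CC and 0 in CT. In the neuron list miR-124 was higher in CT (2.08 and 3.60 CPM, from 12 and 19 counts) and miR-9 was lower. The part of tissue composition in the results below was not tested.

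A miRNA is cut from a hairpin transcript, and either arm of the hairpin can be kept as the mature strand, named 5p or 3p. Bases 2 to 8 of the mature strand, the seed, select the sites bound in target mRNAs, so miRNAs with different seeds pair with different sites. The miRNAs miR-456 to miR-460 are known from fish and birds and are not part of the usual human and mouse sets. Some miRNA loci are transcribed on both strands and fold into a hairpin on each, as at the Hox locus of Drosophila, and the mature strands then have unrelated seeds although they come from the same stretch of DNA.

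The 7 mature sequences are shown because their seeds and their likeness to each other set how the counts can be read. They are given 5′ to 3′ as the deposited table lists them, with the seed in capitals.
miR-456-3p: cAGGCUGGuuagaugguuguca
miR-458a-3p: aUAGCUCUuugaaugguacugc
miR-458b-5p: aGUACCAUucaaagagcuauga
miR-460a-5p: cCUGCAUUguacacacugugug
miR-460b-5p: uCCUCAUUguacaugcugugug
miR-460a-3p: cACAGCGCauacaauguggauu
miR-460b-3p: cACAGCGCaugcaauguggacau

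Within this set the only shared seed was that of the 3p arms of miR-460a and miR-460b, and no other row of the table had the seed of any member. All members were 22 nt long except miR-460b-3p with 23 nt. Only 1 of the 7, miR-460b-5p, began with U, against 45.1% of all rows. Their share of G and C ran from 36.4% to 52.2%, around the median of 45.5% over all rows.

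The miR-458 rows carry sequences that are antisense to each other. Reversed and complemented, miR-458b-5p matched miR-458a-3p over 20 of 22 nt without a mismatch, shifted by 2 nt. The next lines show this, with the shared bases in capitals.
miR-458a-3p: AUAGCUCUUUGAAUGGUACUgc
reverse complement of miR-458b-5p: ucAUAGCUCUUUGAAUGGUACU
The match did not stop at the mature strands. All 102 nt of the mir-458b hairpin are the exact reverse complement of positions 9 to 110 of the 116 nt mir-458a hairpin, so the table holds both strands of the same stretch as separate hairpins. In the hairpins below the capitals mark the mature strand.
mir-458a hairpin: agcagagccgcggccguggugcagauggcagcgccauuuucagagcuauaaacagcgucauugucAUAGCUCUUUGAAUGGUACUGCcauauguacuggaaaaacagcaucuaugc
mir-458b hairpin: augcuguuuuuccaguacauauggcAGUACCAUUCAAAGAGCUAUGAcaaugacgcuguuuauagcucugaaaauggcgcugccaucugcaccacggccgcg

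**Figure D1:**
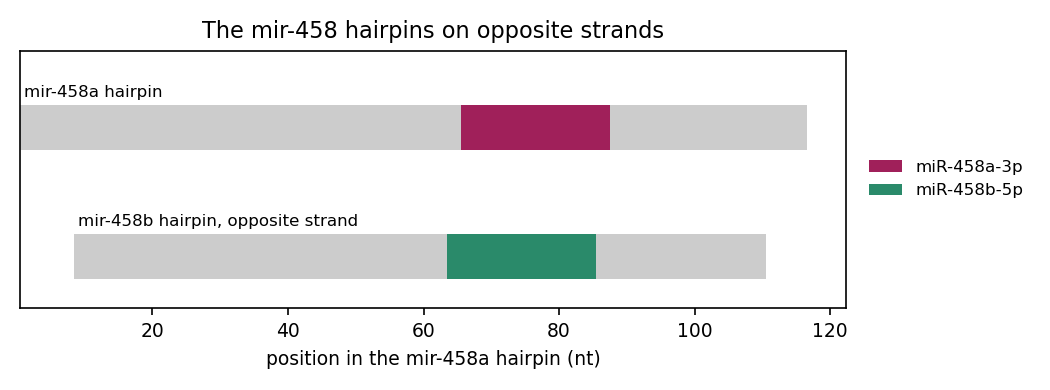
The mir-458a hairpin (upper bar) and the mir-458b hairpin of the opposite strand (lower bar), drawn to scale against the position in the mir-458a hairpin in nt, with the mature strands coloured. miR-458a-3p lies at positions 66 to 87 and the stretch opposite miR-458b-5p at positions 64 to 85.

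Both strands were predicted to fold into hairpins of similar energy. RNAfold gave a minimum free energy of -43.6 kcal per mol for mir-458a and -38.1 kcal per mol for mir-458b, with 70.7% and 64.7% of the bases paired. The other member hairpins had -36.9 (mir-456), -30.0 (mir-460a) and -37.6 kcal per mol (mir-460b). The 167 hairpins with chicken names had a median of -35.9 kcal per mol and a median of 71.4% of bases paired. These energies are not adjusted for hairpin length. Per nt the median was -0.412 kcal per mol. The members had -0.376 (mir-458a), -0.374 (mir-458b), -0.329 (mir-456), -0.333 (mir-460a) and -0.418 (mir-460b). In the predicted folds 19 of the 22 bases of miR-458a-3p and 18 of the 22 bases of miR-458b-5p were paired. These are properties of the sequences and not measurements in the libraries.

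The members were minor miRNAs of the duodenum. Together the 7 rows had 1108 counts in CC and 1492 in CT, or 0.0192% and 0.0283% of the library. If the miR-458 stretch is counted through miR-458a-3p alone, the sums are 688 and 858 counts. Over all 288 rows the median level was 4.50 CPM in CC and 6.45 CPM in CT. Of the 7 members, 4 had at least 50 counts over both libraries, the minimum used here to set ratios against those of the whole table. The other 3 fell under it. The order of the levels was the same in both libraries for the 5 most abundant rows, the miR-458 pair followed by miR-456-3p, miR-460b-5p and miR-460a-5p. Of the neighbours in that order, only the miR-458 rows had a ratio of counts whose exact interval held 1 (0.874 to 1.15 in CC, 0.896 to 1.12 in CT). The closest of the others were miR-456-3p and miR-460b-5p, with ratios of 1.58 in CC (1.22 to 2.07) and 1.41 in CT (1.06 to 1.87).

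miR-458a-3p had 421 counts in CC and 635 in CT. These are 72.9 CPM in CC (interval 66.1 to 80.2) and 120 CPM in CT (111 to 130). It was the row at rank 86 of the table in CC and at rank 76 in CT. The intervals of the libraries did not overlap. The ratio of CT to CC was 1.65 (1.46 to 1.87), a log2 ratio of 0.72. The 3p strands of 3 of 3 epithelial markers (miR-200a, miR-200b and miR-429), the more abundant arm of each, were higher in CT. So were 79 of the 149 rows with at least 50 counts, so this direction is a common one. The sum of the epithelial markers was 14047 CPM in CC against 23334 in CT. The 5p strands did not all follow, with ratios of 0.916 for miR-200a-5p (0.871 to 0.964) and 1.09 for miR-200b-5p (0.917 to 1.30). The 5p strand of miR-429 had 1 count in CC and 7 in CT. Also higher in CT were the sums of the intestinal epithelium, pancreas and white blood cell markers. The sums of the other lists were lower (for red blood cells on few counts) or, for liver, nearly equal. The part of epithelial or other tissue content in the miR-458 difference was not tested.

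miR-458b-5p, the antisense partner, had 420 counts in CC and 634 in CT. These are 72.8 CPM (66.0 to 80.1) and 120 CPM (111 to 130), and its ratio of CT to CC was likewise 1.65 (1.46 to 1.87). The partners thus differed by 1 count in CC and by 1 count in CT. The share of miR-458b-5p in the sum of the pair was 49.94% in CC, with an exact binomial interval of 46.5 to 53.4%, against 49.96% in CT, with 47.2 to 52.7%. For rows counted independently at these levels, counting error alone would give the difference a standard deviation of 29.0 counts in CC and 35.6 counts in CT. The observed difference of 1 count was far smaller than that in each library. A difference of 1 count lies within it whether or not the rows share reads. This comparison therefore cannot decide how the rows were counted. The table gives counts per row and not reads, so whether the same reads were entered in both rows, and from which strand they came, was not tested. The miR-458 values are therefore read as those of 1 stretch of DNA, and not as separate measurements that bear each other out.

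**Figure D2:**
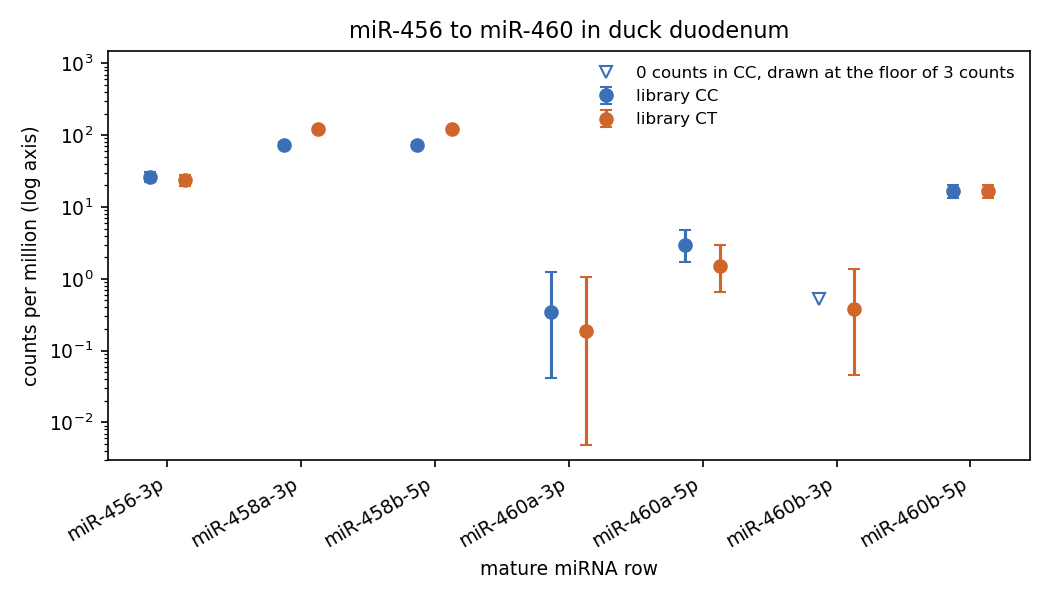
Level of each member in library CC and library CT, in CPM on a log axis, with exact Poisson 95% intervals of the count (counting error only, 1 library per group). The miR-458 rows sit together at 72.8 to 72.9 CPM in CC and at 120 in CT. The 3p arms of miR-460 have counts under the floor of 3 counts. The 0 of miR-460b-3p in CC is drawn at that floor, and so above the 3p points with 1 or 2 counts.

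Equal counts of this kind were looked for among all pairs of rows. Among the 149 rows with at least 50 counts there are 11026 pairs of rows, and in 2 of them (0.0181%) the rows were within 1 count of each other in both libraries. The limit of 1 count equals the difference of the miR-458 pair, and the pairs join rows of all levels. The share is therefore small by construction. Of the 2 pairs found, 1 was the miR-458 pair. The other was miR-219a with miR-219b, with 50 counts each in CC and 59 each in CT. The miR-219 rows are also antisense to each other, over 18 nt, and their hairpins match over 85 nt. Each of the other 2 antisense pairs, given below, has a row under 50 counts and was not in this search.

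The table holds 4 antisense pairs in all, defined as mature rows of different hairpins with at least 15 bases of exact reverse complement. In the other 2 pairs the rows differed by more than 1 count in each library. miR-365-3p had 109 counts in CC and its partner miR-365b-5p had 14, and in CT they had 275 and 35. The less abundant partner there took 11.4% of the sum in CC (6.36 to 18.4%), against 11.3% in CT (7.99 to 15.4%). For miR-124a-3p and miR-124c-5p the counts were 12 and 10 in CC against 19 and 11 in CT. The shares of miR-124c-5p were 45.5% (24.4 to 67.8%) and 36.7% (19.9 to 56.1%). Both intervals hold an equal share, so at these counts the miR-124 rows were not shown to differ. The hairpins of these 2 pairs match over 27 nt (miR-365) and 33 nt (miR-124), against 102 nt for miR-458. Whether the length of the match bears on the likeness of the counts was not tested.

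**Figure D3:**
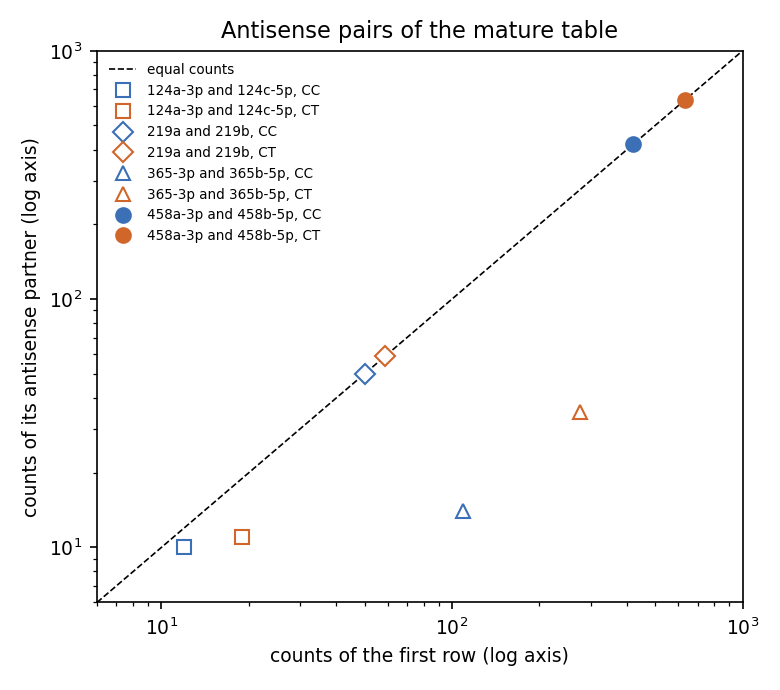
Counts of the rows of each antisense pair, the first row against its partner, on log axes, in CC (blue) and CT (orange); the dashed line marks equal counts. The miR-458 pair (filled circles, 421 and 420 counts in CC, 635 and 634 in CT) and the miR-219 pair lie on the line, whereas the miR-365 pair (109 and 14, 275 and 35) lies below it.

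miR-456-3p, the strand from the 3p arm of its hairpin, had 152 counts in CC and 124 in CT. Its level was 26.3 CPM in CC (22.3 to 30.9) and 23.5 CPM in CT (19.6 to 28.0), at ranks 111 and 114. These intervals overlapped, and the ratio of CT to CC was 0.893 (0.699 to 1.14). A difference in either direction was not detectable at this depth.

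miR-460b-5p had 96 counts in CC and 88 in CT. Its level was 16.6 CPM in CC (13.5 to 20.3) and 16.7 CPM in CT (13.4 to 20.6), at ranks 121 and 123. The log2 ratio of 0.01 had an interval from -0.43 to 0.44, so the counts leave room for a difference of that size either way. Its direction depends on the scaling, with a ratio of 0.960 under size factors and 1.05 once the 10 most abundant rows are left out of the totals.

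miR-460a-5p, from the related hairpin, had 17 counts in CC and 8 in CT, or 2.94 CPM (1.72 to 4.72) and 1.52 CPM (0.655 to 2.99). The ratio of CT to CC was 0.515 with an interval from 0.192 to 1.26, and the row is under the minimum of 50 counts. Both miR-460 5p strands are 22 nt long, but whether their sequences are captured equally well in a library was not tested. miR-460b-5p had 5.65 times the counts of miR-460a-5p in CC and 11.0 times in CT, and the interval of the change between the libraries, 0.749 to 5.47, holds 1.

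The miR-460 copies differ more on the 5p strand, which carries nearly all of their counts, than on the 3p strand. With positions counted from 1 at the 5′ end of miR-460a, the 5p strands were alike at 17 of 22 bases and differed by C1U, U3C, G4U, C14U and A15G. Of these, U3C and G4U lie in the seed. The 3p strands were alike at 19 of the 22 bases compared and differed by A11G, U21C and U22A, none of them in the seed.

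The 3p strands of miR-460 were barely detected. miR-460a-3p had 2 counts in CC and 1 in CT. miR-460b-3p had 0 counts in CC, which allows up to 0.520 CPM by the floor of 3 counts and 0.639 CPM by the upper end of the exact Poisson interval, and 2 counts in CT. No ratio is given for these rows. The 5p strand thus took 17 of 19 counts of mir-460a in CC (89.5%, 66.9 to 98.7%) and 8 of 9 in CT (88.9%, 51.8 to 99.7%). It took 96 of 96 counts of mir-460b in CC (100%, 96.2 to 100%) and 88 of 90 in CT (97.8%, 92.2 to 99.7%). The intervals of the libraries overlapped for both hairpins. Both arms are listed for 70 hairpins of at least 50 counts, of which 43 had the 5p strand as the more abundant in both libraries and 33, mir-460b among them, had over 95% of counts on it in both. mir-460a, with 28 counts over both libraries, is not among the 70.

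For mir-456, mir-458a and mir-458b the table lists a single arm, so no arm share can be given. A single listed row is common in the table, where it applies to 88 of the 167 hairpins with chicken names.

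The ratios of the members are set here against those of the whole table. None of the 4 members with at least 50 counts was 2-fold apart (0 of 4), against 11 of 149 rows (7.38%). At that share 0 of 4 is unremarkable, so it does not set the members apart. The miR-458 rows, 2 of the 4 but 1 stretch of DNA, were at least 1.5-fold higher in CT, as were 22 of 149 rows (14.8%). The counting interval excluded a ratio of 1 for the same 2 members and for 102 of 149 rows (68.5%), so an interval that excludes 1 is the usual case in this table. By its ratio miR-458a-3p stood 15th of the 149 rows, directly after its own partner miR-458b-5p, so the rank counts this stretch of DNA against itself. The median log2 ratio was 0.36 over the 4 members, a value that the doubled miR-458 row raises, and 0.02 over the 148 rows with at least 50 counts in all and some in each library.

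The difference between miR-458 and the other members does not rest on the library totals. In CC miR-458a-3p had 2.77 times the counts of miR-456-3p, and in CT it had 5.12 times. The change between the libraries was 1.85-fold (exact conditional interval 1.40 to 2.44). Against miR-460b-5p the counts of miR-458a-3p were 4.39 times higher in CC and 7.22 times in CT, a change of 1.65-fold (1.19 to 2.28). Between miR-456-3p and miR-460b-5p the change was 0.890-fold (0.602 to 1.32), an interval that holds 1. These intervals compare the libraries and carry no error between ducks.

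**Figure D4:**
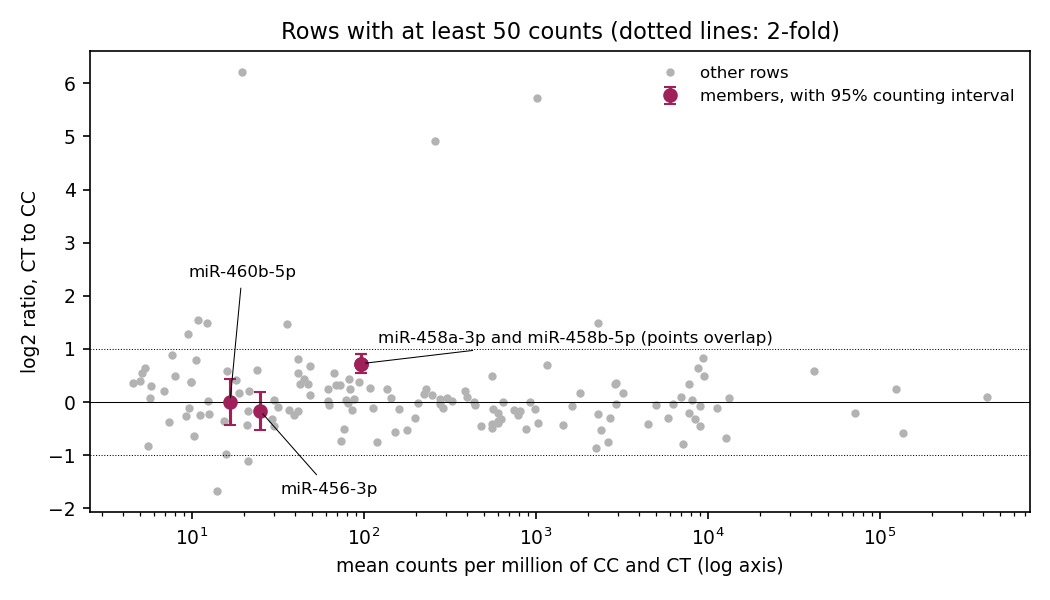
The log2 ratio of CT to CC against the mean level in CPM (log axis) for the rows with at least 50 counts and counts in both libraries, with the members in colour and their 95% counting intervals. The miR-458 rows lie at 0.72, between the lines of equal level and 2-fold, whereas the intervals of miR-456-3p and miR-460b-5p cross 0.

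The rows closest to miR-458a-3p in level in both libraries, by distance on log2(CPM + 1) over the 2 libraries, were its own partner and then miR-147. miR-147 was at 74.1 CPM in CC, against 116 in CT. After it came miR-30c-1-3p (81.6 and 106 CPM), miR-1662 (70.3 and 94.4 CPM) and miR-30c-2-3p (75.7 and 90.3 CPM). The same 4 rows followed for miR-458b-5p. For miR-456-3p the closest were miR-204, with 22.3 and 19.9 CPM, miR-181a-3p, miR-18a-5p, miR-10a-3p and novel_112, and for miR-460b-5p they were miR-146c-3p, with 17.7 and 19.9 CPM, miR-9-3p, miR-133b, miR-1451-5p and miR-204. With only 2 libraries this likeness describes level and says nothing of shared control.

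The rows named miR-449 to miR-499, without the members, give a comparison chosen by number. Of these 10 rows, 6 had at least 50 counts, 2 higher and 4 lower in CT. Over all 149 rows with that minimum, 79 were higher and 70 lower. The 4 lower rows are both arms of miR-455 and miR-490. The intervals of miR-499-5p (0.871 to 1.18), miR-455-3p (0.581 to 1.22) and miR-490-3p (0.696 to 1.03) hold 1. The median log2 ratio of the 6 rows was -0.24, and 0 of them were 2-fold apart. The most abundant was miR-454-3p, of the miR-130 and miR-301 seed family, at 357 CPM in CC against 413 in CT. miR-499-5p, which lies in a myosin gene, had 61.7 and 62.6 CPM, a lower value than that of miR-458a-3p in each library. miR-455-5p, which lies in a collagen gene, went the other way from miR-458, with 91.6 CPM in CC against 55.4 in CT and a ratio of 0.604 (0.522 to 0.698).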

How the data were processed

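Small RNA libraries of the Illumina kind were made, per the labels' protocols, from fragments of 20 to 30 nt cut from a 15% TBE-urea gel loaded with 10 µg of Trizol-extracted RNA. Per the file headers, the authors deposited read counts and TPM values for each mature miRNA in CC and CT. The deposited TPM values equal the counts scaled to 1000000 per library within 4.31e-05, with no length term. Aligner, database release and the handling of reads that match several rows: not given in the sources used here.

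Ratios are CT to CC with exact conditional (Clopper-Pearson) 95% intervals, levels have exact Poisson intervals and shares exact binomial intervals. Reads carry no stated molecular identifiers, so these cover counting error only. The floor of detection was set at 3 counts (0.520 CPM in CC, 0.569 in CT), and a count of 0 is drawn there. It was not put in place of a 0 in the ratios. No test between groups was possible with 1 library each. Sequences were compared without gaps, and the hairpins were folded with RNAfold 2.7.2. Scalings used edgeR 4.0.16 and DESeq2 1.42.0, the rest Python 3.11.15, numpy 2.4.6, scipy 1.17.1, pandas 2.3.3 and matplotlib 3.10.9. The interval code was tested on simulated data. The named rows are the members, rows that share a seed or are antisense, the 5 rows nearest in level to each member with at least 50 counts, the tissue markers, and the rows from miR-449 to miR-499. Each tissue marker was taken by its more abundant arm, and the 5p arms of the epithelial markers are given beside them. The rows named in the closing section for equal counts were chosen after their values were seen. Members and lists were chosen with earlier results of these data known.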

Additional observations from a re-analysis of the deposited data

How the results depend on the processing

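The ratios of the 4 members with at least 50 counts stayed within their counting intervals under TMM factors, median-of-ratios size factors, totals without the 10 most abundant rows, a pseudocount of 5 CPM and the deposited TPM. They ran from 1.58 to 1.72 for miR-458a-3p, from 0.854 to 0.931 for miR-456-3p and from 0.960 to 1.05 for miR-460b-5p. With the pair summed the miR-458 ratio was 1.65, as it must be for rows of nearly equal counts. Summing both arms left the miR-460 levels within their intervals. TMM shifted every log2 ratio by -0.05, size factors by -0.06 and the totals without the 10 most abundant rows by 0.06. The number of rows 2-fold apart, 11, became 24 with a minimum of 10 counts, 46 with at least 1 count in each library and no minimum, 3 with a minimum of 500 and 33 with a 1.5-fold rule, each of which changes the rows or the fold admitted. The 4 antisense pairs remained 4 with at least 18 bases and became 42 with 12 bases and 1 mismatch, 1 of them with a member. Among chicken-named rows alone the ranks in CC and CT were 79 and 69 for miR-458a-3p, 80 and 70 for miR-458b-5p, 101 and 105 for miR-456-3p and 110 and 113 for miR-460b-5p, since predicted rows drop out. Depth limits miR-460a and both miR-460 3p strands. No paired analysis was possible because each group has 1 library.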

Other observations

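Equal counts also occurred on the same strand among rows of low count. miR-29a-3p and miR-29c-3p, which share a run of 20 nt, both had 9 counts in CC and 12 in CT, and the predicted rows novel_90 and novel_91, which share 21 nt, both had 5 and 8. At such low counts, 5 pairs of rows that had 10 or more counts in all and no shared run over 9 nt were equal as well, among them miR-144-3p and let-7a-2-3p with 9 and 7 counts. These pairs were chosen after their values were seen.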
